A study of Homo sapiens with 36 samples.

Results

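In IMR-32 cells, a MYCN-amplified human neuroblastoma line, HDAC11 was targeted with a small interfering RNA called siRNA no. 2. The transcriptome was compared with that of cells given a negative control siRNA. The comparison holds 12 of the 36 arrays of the series, chosen by their titles: 6 arrays of siRNA no. 2 and 6 arrays of the negative control, with 2 replicates of each at 42, 48 and 54 h after transfection. No measured value entered this choice. The other arrays hold IMR-32 cells given a second HDAC11 siRNA (no. 1) and the same 3 treatments in BE(2)-C cells, another MYCN-amplified neuroblastoma line. They entered the joint normalization of all 36 arrays, and those of siRNA no. 1 in IMR-32 cells an alternative fit. Otherwise they were used only where siRNA no. 2 in IMR-32 cells was compared with them.

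All cells were grown in DMEM with fetal calf serum and non-essential amino acids and were transfected with the HiPerFect reagent. The control cells received the AllStars negative control siRNA of Qiagen, so both groups share the transfection, and the siRNA no. 2 cells received siHDAC11_7 of the same maker. Each time point had its own control arrays. Total RNA was labelled and hybridized to Illumina bead arrays, whose probes give 1 brightness value per array. The labels call the arrays replicates without saying whether they came from separate cultures, so the p-values measure the spread between these arrays, which may be technical. A bulk array also cannot tell fewer cells in a cell cycle phase from less RNA of a gene per cell.

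The sequence in the HDAC11 transcript that siRNA no. 2 is directed against is shown because every comparison below rests on this 1 reagent. It is 21 bases long with 11 G or C bases, is listed among the study's oligonucleotides, and belongs to a gene on chromosome 3.
HDAC11 siRNA no. 2 target: gcgagacttcatggacgacaa

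HDAC11 is the only class IV histone deacetylase and removes fatty acyl as well as acetyl groups from lysines. Neuroblastoma arises from sympathoadrenal precursors and keeps part of their programme, with catecholamine enzymes, granule proteins and neuronal cytoskeleton. In dividing cells a large gene set is switched on from S phase to mitosis, under E2F factors and then under B-MYB and FOXM1, while the cyclin-dependent kinase inhibitor p21, the product of CDKN1A and a classic target of p53, holds the cycle back. The arrays address which transcripts change when HDAC11 is depleted.

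The 12 arrays were alike in quality. Detection required a detection p-value below 0.01 together with a signal above the background of the array in question, and 38.4% to 41.2% of the probes met this. Replicate arrays correlated at 0.9925 to 0.9941 over all probes, and each of the 12 arrays was most like an array of the same siRNA. The labelled cell type could be read from its genes: 15 of 18 measured adrenergic transcription factors and 16 of 20 genes of catecholamine synthesis and storage were detected, against 2 of 23 markers of liver, epithelial, blood, glial and other cells. The summed signal of these 23 markers ran from 2391 to 2506 in the control arrays and from 2423 to 2506 in the siRNA no. 2 arrays, and none of them passed the test. Mesenchymal and matrix genes, also taken as markers of other cells, were less clearly set apart: 16 of 29 measured were detected.

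The targeted transcript lay close to background. The single HDAC11 probe had log2 normalized signals of 6.83 and 6.88 at 42 h, 6.84 and 7.09 at 48 h, and 6.95 and 6.95 at 54 h in control cells. After siRNA no. 2 they were 6.87 and 6.81 at 42 h, 6.81 and 7.06 at 48 h, and 6.80 and 6.74 at 54 h. Both groups overlapped at 42 and 48 h, and only at 54 h did both siRNA arrays lie below both control arrays. The probe was detected on 2 of 6 control arrays and on 0 of 6 siRNA no. 2 arrays, and the averaged difference of -0.08 on the log2 scale (SE 0.06) did not pass the test (limma, adjusted p = 0.596). At this signal a loss of the transcript was not detectable, so the array does not check the knockdown. The study measured HDAC11 mRNA separately by quantitative RT-PCR in IMR-32 cells and reports that its HDAC11 siRNAs reduced it.

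Across the transcriptome the changes were many and small. Averaged over the 3 times, 1813 of 47320 probes were higher and 2064 were lower after siRNA no. 2 at an adjusted p below 0.05. With 1 probe per gene, 1312 of 20045 genes (6.55%) rose and 1538 (7.67%) fell, and among the 10628 genes detected on both arrays of at least 1 group the shares were 12.1% and 14.1%. The median rise was 0.26 and the median fall was -0.28 on the log2 scale. Only 2 genes rose and 8 fell by more than 1, that is, by more than a doubling or halving of the normalized signal. When each array was scaled by its median instead, 1038 probes were higher and 2297 were lower, so the even split of rises and falls depends on the scaling.

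**Figure D1:**
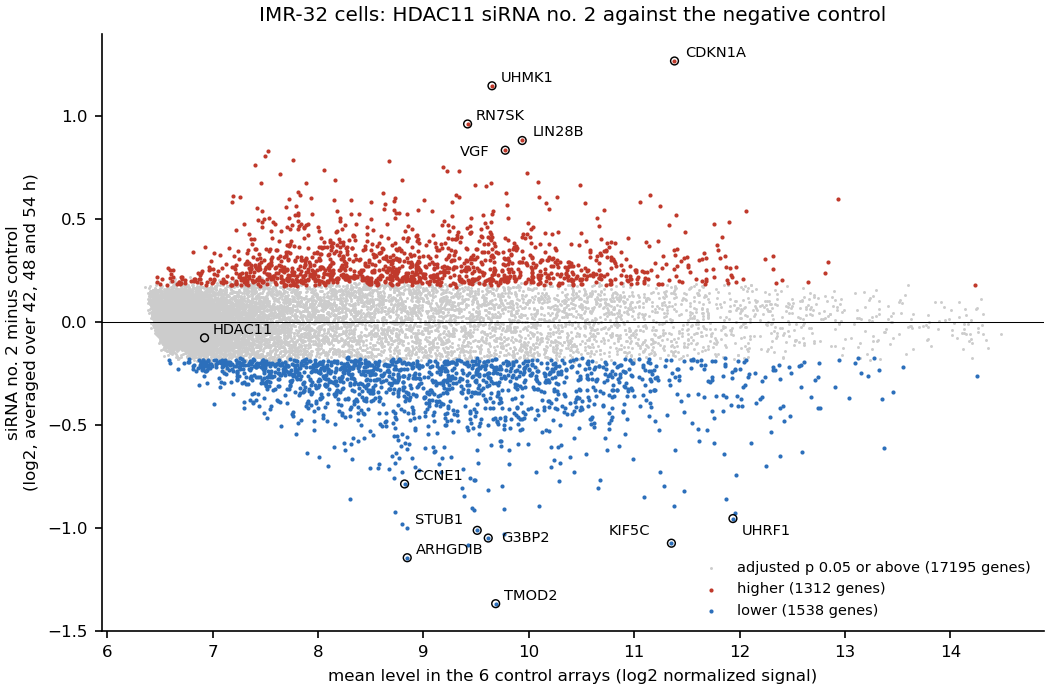
Each point is 1 gene; the horizontal axis is its mean log2 normalized signal in the 6 control arrays and the vertical axis is the averaged log2 difference, siRNA no. 2 minus control. Red marks the 1312 genes that rose and blue the 1538 that fell, and circles mark named genes, with CDKN1A highest at 1.27, TMOD2 lowest at -1.37 and HDAC11 near background at -0.08.

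The number of calls and the size of the changes grew with time. At 42 h 226 probes were higher and 378 lower, at 48 h 375 and 536, and at 54 h 741 and 1018. Over the 2850 genes called on average, the median size of the difference was 0.25 at 42 h, 0.27 at 48 h and 0.33 at 54 h. Of these 2850 genes 2018 had a larger difference at 54 h than at 42 h in the same direction, and RN7SK, for one, went from 0.50 to 1.37. The difference between the effects at 54 h and 42 h was itself tested, and 0 probes passed in either direction with limma, with 2509 at an unadjusted p below 0.05. A prior that followed the signal level and was robust to outlying variances gave 2. Of the siRNA no. 2 arrays, replicate 1 at 54 h departed most from its controls, with a median shift of 0.35 over those genes against 0.25 to 0.31 on the other 5.

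A stricter criterion, a call at 2 or more times in the same direction and at none in the other, was met by 304 higher and 469 lower probes. In genes this came to 248 (1.24%) rising and 371 (1.85%) falling. All 6 siRNA no. 2 arrays lay above all 6 control arrays for 768 genes (3.83%) and below them for 929 genes (4.63%).

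The largest fall was that of TMOD2. TMOD2, a neuronal tropomodulin that caps actin filaments, had signals of 9.55 to 9.83 (median 9.67) in the control arrays and of 8.05 to 8.61 (median 8.28) after siRNA no. 2. The groups did not overlap, and the averaged fall was -1.37 (SE 0.07, adjusted p = 1.43e-15), or 2.58-fold. Of its 2 other probes, 1 fell by 1.19 and 1 lay at 0.00. ARHGDIB went from 8.67 to 9.04 (median 8.83) in control cells to 7.49 to 7.91 (median 7.70), a fall of -1.15 (SE 0.06, adjusted p = 1.79e-14). KIF5C, a neuronal kinesin-1 motor, fell by 1.08 and was 11.25 to 11.45 in control and 9.95 to 10.46 in siRNA no. 2 arrays.

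G3BP2, which helps to build stress granules, had a median of 9.60 in control cells and 8.60 after siRNA no. 2 (difference -1.05). STUB1, the chaperone-linked ubiquitin ligase CHIP, went from a median of 9.46 to 8.51 (difference -1.01). MXRA7 fell by 1.08, TWSG1, a secreted regulator of BMP signalling, by 1.03, and PARM1 by 1.00. The tetraspanin CD9 fell by 0.86 and its known membrane partner PTGFRN by 0.98, though a second CD9 probe lay at 0.15. SMARCD1, a subunit of the SWI/SNF chromatin remodeller, fell by 0.93, and the adhesion receptor TENM4 by 0.91. For each of the 20 largest falls, all 6 siRNA no. 2 arrays lay below all 6 control arrays. These genes were picked with all 6 arrays below the control mean of their time, which favours this.

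The largest rise was that of CDKN1A. Control signals of CDKN1A were 11.41 and 11.46 at 42 h, 11.39 and 11.33 at 48 h, and 11.37 and 11.34 at 54 h. After siRNA no. 2 they were 12.46 and 12.52 at 42 h, 12.73 and 12.69 at 48 h, and 12.89 and 12.62 at 54 h. Every siRNA array stood about 1 log2 unit or more above its controls, and the averaged rise was 1.27 (SE 0.06, adjusted p = 7.13e-16), or 2.41-fold. The second CDKN1A probe rose by 0.35.

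Next in size stood UHMK1, a serine/threonine kinase with an RNA-recognition-like domain, whose median went from 9.65 in control to 10.77 (difference 1.15, SE 0.06). LIN28B, which blocks maturation of the let-7 microRNAs, had signals of 9.85 to 10.10 (median 9.90) in control arrays and of 10.64 to 11.02 (median 10.81) after siRNA no. 2, a rise of 0.88 (SE 0.06, adjusted p = 4.83e-12). VGF, a neuropeptide precursor, rose by 0.83 and EIF5A2, a translation factor, by 0.79. NKIRAS1, an inhibitor of NF-kappaB signalling, rose by 0.75 and the polyadenylation factor CPEB1 by 0.74. Of the 20 largest rises, 19 had no overlap between groups, the exception being the U4 RNA gene RNU4-1. They were picked by the same rule as the falls, which favours this.

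**Figure D2:**
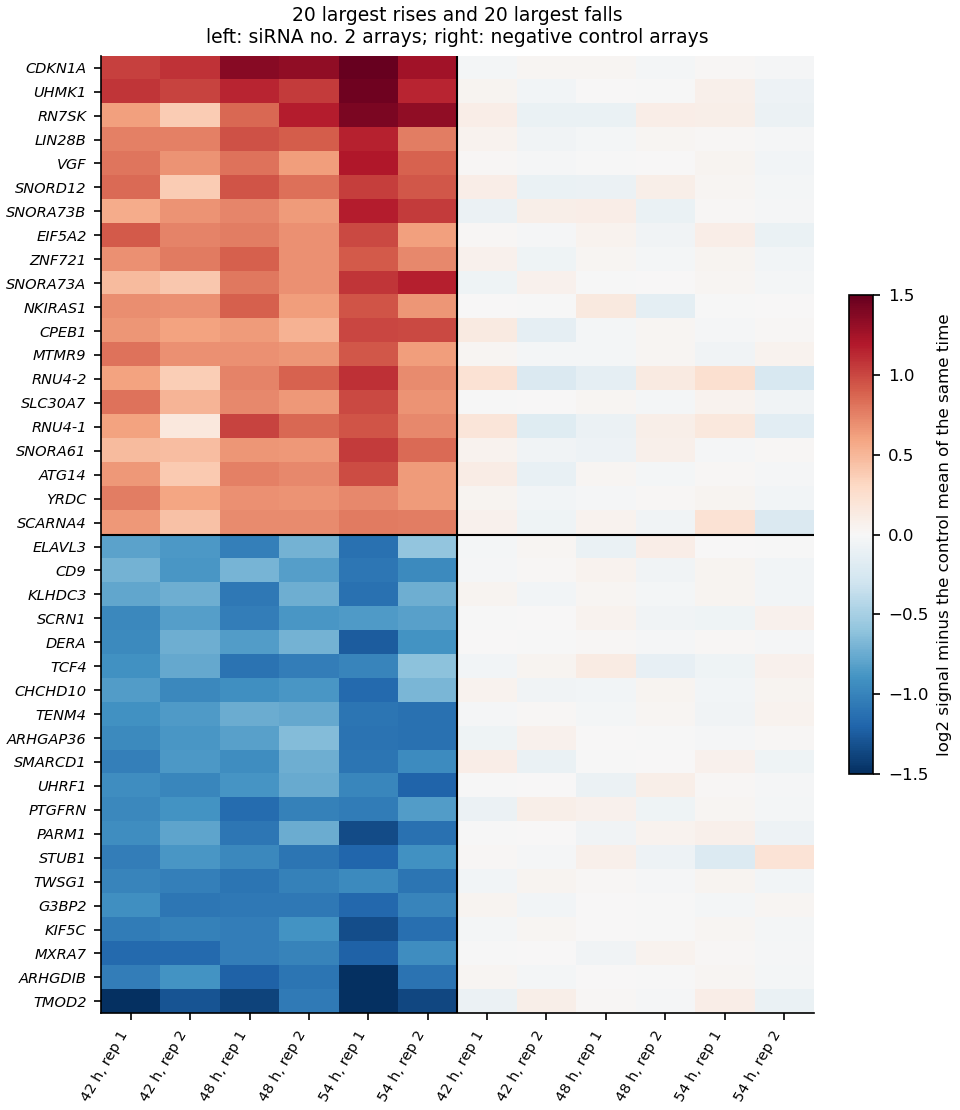
Rows are the 20 genes with the largest rises and the 20 with the largest falls, columns are single arrays, and colour is the log2 signal minus the control mean of the same time, with the scale ending at 1.5 in both directions. For each of the 40 genes all siRNA no. 2 arrays (left) are on the same side of 0, which the rule that picked the genes required. Control arrays (right) lie near 0.

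Among the rises, 8 of the 20 were small nuclear or nucleolar RNAs. RN7SK, the 7SK RNA that holds the elongation factor P-TEFb inactive, had signals of 9.25 to 9.56 in control arrays and of 9.73 to 10.85 after siRNA no. 2, a rise of 0.96 (SE 0.07). Over all measured genes of these classes, 57 of 279 small nucleolar RNAs rose and 1 fell, and 10 of 16 small nuclear RNAs rose and 1 fell. Over all genes 6.55% rose and 7.67% fell, and over detected genes 12.1% and 14.1%. These RNAs have near-identical copies and mostly lack poly(A) tails, so a probe may read several of them and the labelling may read precursors.

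Genes on the p53 target list rose more often than they fell. Of 38 measured, 12 rose, 2 fell and 24 did not pass the test, and the median difference was 0.08, against 0.00 over all genes. The shares, 31.6% and 5.26%, stand against 6.55% and 7.67% of all genes and 12.1% and 14.1% of detected genes. Counts on the lists below have these same shares as their background. CDKN1A led the list. PHLDA3, an inhibitor of AKT, had signals of 7.75 to 7.89 (median 7.81) in control and of 8.14 to 8.47 (median 8.38) in siRNA no. 2 arrays (rise 0.52, SE 0.06, adjusted p = 2.75e-08). SESN1, a restraint on mTORC1 signalling, rose by 0.44, ZMAT3 by 0.41 and FBXO22 by 0.41. The rise of ZMAT3 was not called with its brighter probe.

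The rise did not extend to the whole p53 list. TP53INP1, which promotes autophagy and cell death, fell by 0.44, with 8.96 to 9.07 in control and 8.50 to 8.66 in siRNA no. 2 arrays. Among the 24 members that did not pass the test, named here after their values were seen, were MDM2, the ligase that degrades p53, at -0.01, the apoptosis effector BAX at 0.04, the secreted factor GDF15 at -0.02 and the death receptor FAS at 0.07.

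**Figure D3:**
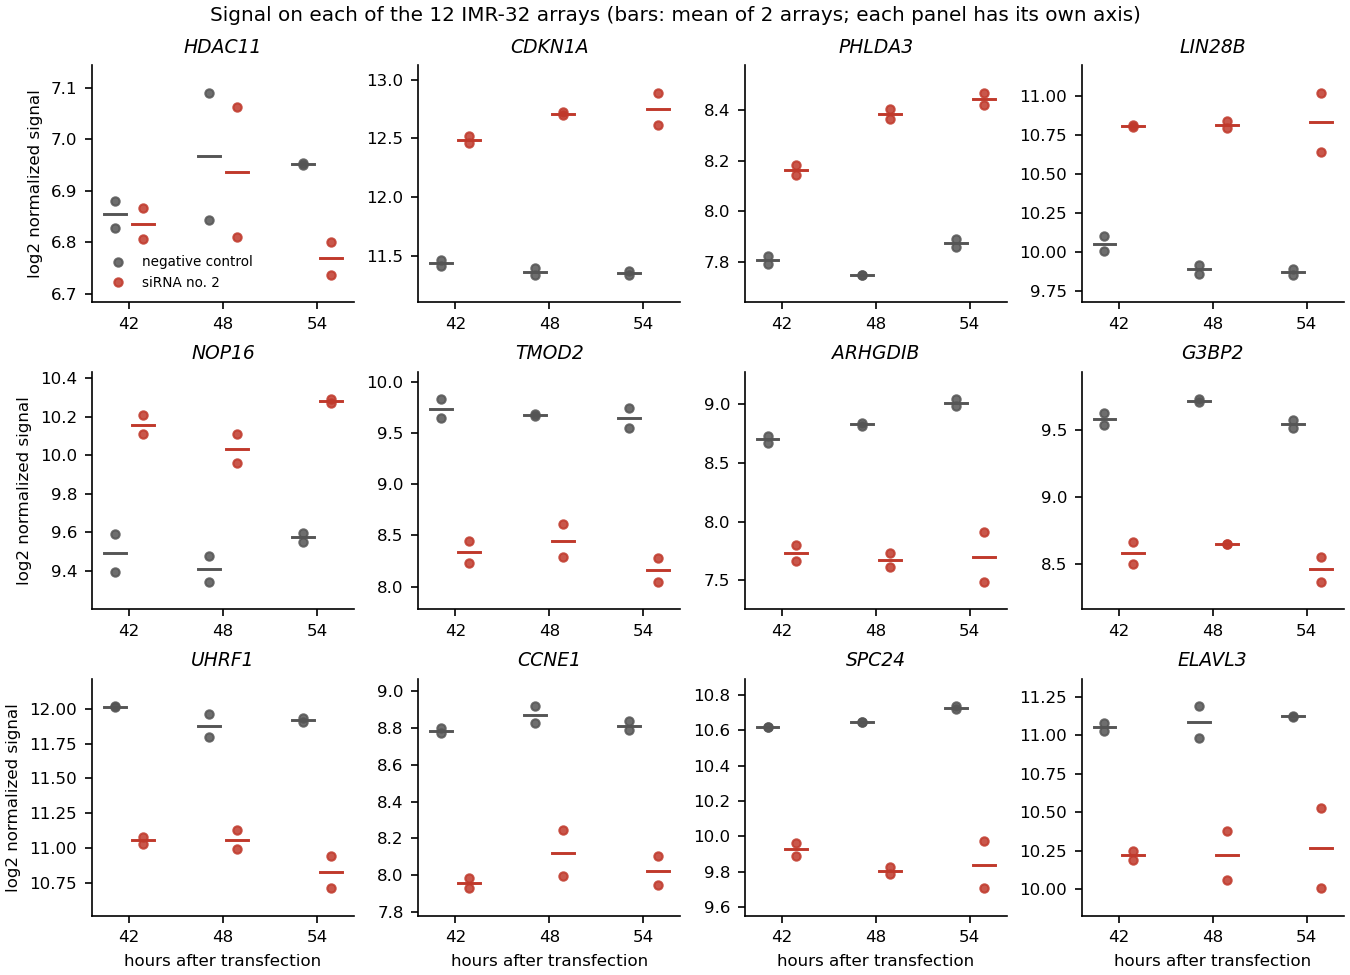
Log2 normalized signal of 12 genes on each array against hours after transfection, with control arrays in grey, siRNA no. 2 arrays in red and bars at the mean of 2 arrays. HDAC11 stays between 6.7 and 7.1 and its groups overlap, while in the other 11 panels every siRNA array is clear of its controls.

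Genes of the G2 and M phases fell as a group. Of 40 measured G2/M genes 24 fell and 0 rose, and the median difference was -0.23. The list median was -0.23 at 42 h, -0.20 at 48 h and -0.30 at 54 h. TOP2A, which untangles DNA before chromosomes part, had signals of 11.62 to 11.93 (median 11.75) in control and of 11.15 to 11.42 (median 11.30) in siRNA no. 2 arrays, a fall of -0.47 (SE 0.06). HMMR, CDKN3, PIF1, CCNF and CDCA3 fell by 0.42, 0.42, 0.41, 0.40 and 0.40.

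Several master regulators of mitosis were not among the called members. They are named after their values were seen. Cyclin B1 (CCNB1) lay at -0.12, the transcription factor FOXM1 at -0.17, Polo-like kinase 1 (PLK1) at 0.05 and Aurora A (AURKA) at 0.11, and none of these 4 passed the test. The kinase of cyclin B, CDK1, fell by 0.27.

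Motors and regulators of the spindle moved in the same direction. Of 28 measured kinesins, spindle and cytokinesis genes 17 fell and 0 rose, with a median of -0.27. KIF23, the kinesin of the central spindle, had signals of 9.43 to 9.54 in control arrays and of 8.84 to 9.06 after siRNA no. 2 (difference -0.51, SE 0.06). RACGAP1, which forms the centralspindlin complex with KIF23, went from 10.30 to 10.53 to 9.88 to 10.05 (difference -0.45, SE 0.06). KIF20A fell by 0.48, DLGAP5, a microtubule-binding spindle protein, by 0.44, and KIF14 by 0.35.

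The kinetochore list was mixed. Of 37 measured members 8 fell and 3 rose, and the median was -0.07. SPC24, a subunit of the NDC80 complex that binds microtubules, fell most, from 10.62 to 10.74 (median 10.65) in control arrays to 9.71 to 9.97 (median 9.86), a difference of -0.81 (SE 0.06, adjusted p = 9.49e-12). CENPA, the histone variant that marks centromeres, fell by 0.52, the kinetochore motor CENPE by 0.49 and the checkpoint protein MAD2L1 by 0.44. The second probe of MAD2L1 lay at -0.05, and that of KIF23 at -0.12. CENPQ, of the inner kinetochore, rose by 0.27.

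S phase genes fell in part. Of 25 measured genes of nucleotide supply and S phase enzymes 13 fell and 0 rose, with a median of -0.23. UHRF1, which guides DNA methylation at replication forks, had control signals of 11.80 to 12.02 (median 11.95) and signals of 10.71 to 11.13 (median 11.01) after siRNA no. 2, a fall of -0.96 (SE 0.06, adjusted p = 2.58e-13). ASF1B, a histone chaperone, fell by 0.41, the mismatch repair gene MSH6 by 0.40 and BARD1, the partner of BRCA1, by 0.40. Of 50 measured genes of replication licensing and the fork 11 fell and 0 rose, led by the helicase subunit MCM2 (-0.61), TIMELESS (-0.53) and the GINS subunit GINS2 (-0.50). With a background correction before normalization 6 members of this list were called, and 7 to 11 when 1 array was left out.

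At the entry to S phase the list of G1 cyclins, inhibitors and E2F factors split. Of 32 measured members 10 fell and 2 rose, with a median of 0.01. CCNE1, the cyclin E that drives S phase entry, had signals of 8.77 to 8.92 (median 8.81) in control arrays and of 7.93 to 8.25 (median 7.99) after siRNA no. 2 (difference -0.79, SE 0.06, adjusted p = 2.14e-11). Its second probe lay at -0.06. The inhibitors p27 (CDKN1B) and p57 (CDKN1C) fell by 0.44 and 0.28, opposite to p21, and CDK6 fell by 0.36.

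Of the 9 genes that the study names as lowered by HDAC11 depletion, UHRF1, CCNE1, CENPA, KIF23, CENPE, RACGAP1, DLGAP5, MAD2L1 and KIF14, each fell, by 0.35 to 0.96. The study picked candidates on arrays that include these, and named the 9 whose fall quantitative RT-PCR, a separate assay, also showed. Their count on these arrays is therefore no independent evidence of the direction. Only KIF14 had overlapping groups.

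**Figure D4:**
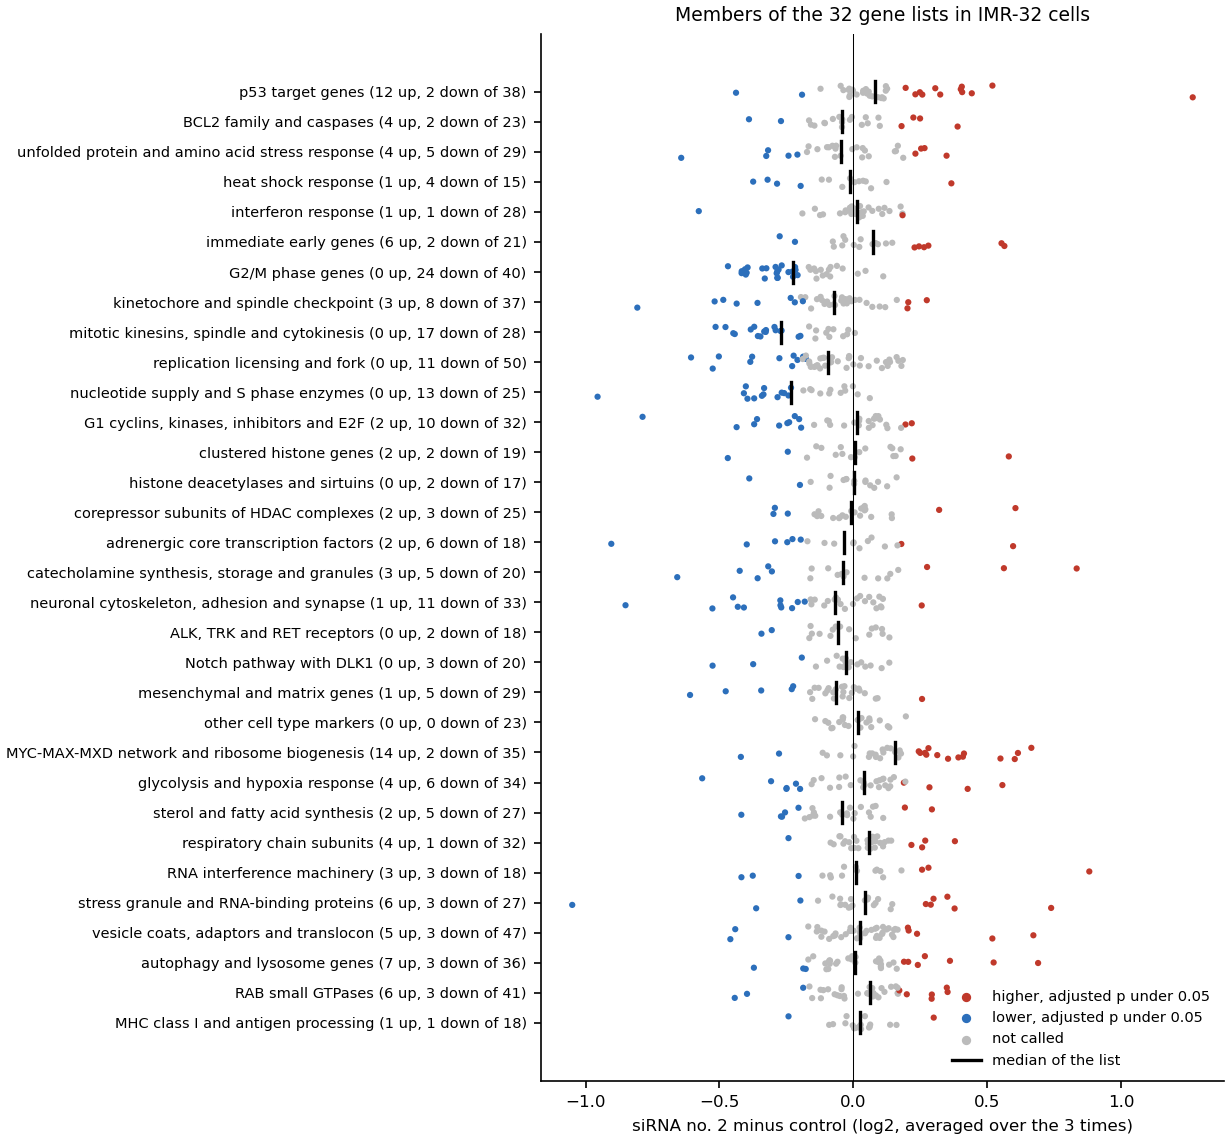
Each row is 1 of the 32 gene lists and each point 1 measured member at its averaged log2 difference, siRNA no. 2 minus control; red points rose, blue points fell, grey points were not called, and black bars are list medians. The G2/M, kinesin and nucleotide supply lists lie left of 0 with medians of -0.23, -0.27 and -0.23, and the ribosome biogenesis list lies right of 0 at 0.16.

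Because many mitotic genes fell, promoters of the mitotic lists were read from RefSeq (GRCh38.p14), from 250 bases before to 50 bases after each start. Of the 105 genes on the G2/M, spindle and kinetochore lists 49 fell, and 42 of these matched a promoter. Searched on both strands were CCAAT, the box bound by NF-Y, and TTTGAA or TTCGAA, the core of the cell cycle genes homology region. Both kinds occurred in 30 of the 42 promoters (71.4%), in 20 of the 47 promoters of list members that did not fall (42.6%) and in 6.58% of 27305 promoters in all. CCAAT alone was in 78.6%, 72.3% and 35.7% of these sets, and TTTGAA or TTCGAA in 78.6%, 57.4% and 16.6%. A match says only that the letters are there.

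The promoters of 3 genes with both motifs and large falls show the arrangement. Capitals mark CCAAT and TTTGAA or TTCGAA matches on either strand, so that ATTGG and TTCAAA are the reverse strand forms. CENPA lies at chr2:26785806-26786105 on the plus strand, KIF23 at chr15:69414099-69414398 on the plus strand and TOP2A at chr17:40417847-40418146 on the minus strand. In CENPA and KIF23 the TTTGAA match stands nearer to the start than every CCAAT match, at -18 and -55, and in TOP2A CCAAT matches stand on both sides of the 2 others.
CENPA promoter: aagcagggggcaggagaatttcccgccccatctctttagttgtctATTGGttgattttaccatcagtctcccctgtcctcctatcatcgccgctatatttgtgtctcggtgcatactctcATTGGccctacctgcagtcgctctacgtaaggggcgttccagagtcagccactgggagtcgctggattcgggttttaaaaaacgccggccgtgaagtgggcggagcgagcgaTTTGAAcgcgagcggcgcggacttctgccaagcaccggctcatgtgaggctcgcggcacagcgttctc
KIF23 promoter: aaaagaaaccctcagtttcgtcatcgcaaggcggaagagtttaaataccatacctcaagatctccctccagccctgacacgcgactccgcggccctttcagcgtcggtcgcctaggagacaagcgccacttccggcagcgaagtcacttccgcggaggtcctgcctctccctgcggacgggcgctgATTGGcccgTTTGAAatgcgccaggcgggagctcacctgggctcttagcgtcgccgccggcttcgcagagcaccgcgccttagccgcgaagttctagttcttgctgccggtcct
TOP2A promoter: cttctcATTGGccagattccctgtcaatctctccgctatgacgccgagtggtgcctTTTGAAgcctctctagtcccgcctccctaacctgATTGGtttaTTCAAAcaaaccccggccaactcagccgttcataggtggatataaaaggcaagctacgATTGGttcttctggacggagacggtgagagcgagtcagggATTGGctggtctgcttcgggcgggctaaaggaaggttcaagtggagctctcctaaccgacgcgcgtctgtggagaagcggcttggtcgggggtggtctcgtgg

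On the list of the MYC-MAX-MXD network and ribosome biogenesis 14 of 35 measured members rose and 2 fell, with a median of 0.16. NOP16, a nucleolar protein, had signals of 9.34 to 9.60 (median 9.51) in control and of 9.96 to 10.29 (median 10.16) in siRNA no. 2 arrays, a rise of 0.66 (SE 0.06). NOP2, an rRNA methyltransferase, rose by 0.61, from 11.01 to 11.32 to 11.65 to 11.92. RRP12, HEATR1 and RRS1, assembly factors of the ribosome, rose by 0.60, 0.55 and 0.41. The 2 that fell were the MYC antagonists MXD3 (-0.42) and MXD4 (-0.28), the latter named after its value was seen. MYCN itself, also named after its value was seen, lay at 0.18, just past the threshold (adjusted p = 0.0419).

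The neuroblastoma programme changed gene by gene. Of 33 measured neuronal cytoskeleton, adhesion and synapse genes 11 fell and 1 rose, with a median of -0.07. ELAVL3, a neuronal RNA-binding protein, had signals of 10.98 to 11.19 (median 11.10) in control arrays and of 10.01 to 10.53 (median 10.22) after siRNA no. 2, a fall of -0.85 (SE 0.07). DCX, which stabilizes microtubules in migrating neurons, fell by 0.53, the synaptic calcium sensor SYT1 by 0.45, CNTNAP2 by 0.43 and the intermediate filament peripherin (PRPH) by 0.41. The second probes of DCX and SYT1 lay at -0.08 and 0.05. The summed signal of the list was 49780 to 52460 in control arrays and 43117 to 45326 after siRNA no. 2, without overlap.

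Among 18 measured adrenergic transcription factors 6 fell and 2 rose, or 1 rose when the arrays were scaled by their medians. Their summed signal went the other way, from 40148 to 43861 in control arrays to 44961 to 49042 after siRNA no. 2, without overlap. The sum adds unlogged signals, so bright members such as HAND1, given below, weigh most in it. TCF4 fell by 0.90, from 9.29 to 9.60 (median 9.47) to 8.36 to 8.78 (median 8.55), and TBX2 fell by 0.40. HAND1, a factor of sympathetic precursors, rose by 0.60, from 12.80 to 13.11 to 13.39 to 13.62. Of 20 genes of catecholamine synthesis and storage 5 fell and 3 rose. The peptide amidase PAM fell by 0.66, the granule protein CHGB by 0.42 and the decarboxylase DDC by 0.36, while CHGA, also of the granules, rose by 0.56 and VGF rose as given above. The Notch target HES4 fell by 0.53 among 3 falls and 0 rises in 20 Notch pathway genes. The receptor ALK fell by 0.30 among 2 falls and 0 rises in 18 genes of ALK, TRK and RET receptors. These shares of falls, 15% and 11.1%, stand against 7.67% of all genes and 14.1% of detected genes.

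Markers of mesenchymal cells and matrix moved little in sum, though more of them fell than rose. Of 29 measured 5 fell (17.2%) and 1 rose (3.45%), with COL5A1 (-0.61), NES (-0.48) and SPARC (-0.34) the largest falls. Over all genes 7.67% fell and 6.55% rose, and over detected genes 14.1% and 12.1%. The summed signal of the list was 11887 to 12349 in control and 11502 to 12325 in siRNA no. 2 arrays.

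The stress and death lists gave no common direction, though immediate early genes rose more often than the background. For scale, 6.55% of all genes and 12.1% of detected genes rose, and 7.67% and 14.1% fell. Of 23 measured BCL2 family and caspase genes 4 rose and 2 fell, the largest being BCL2L12 (0.39) and BCL2L13 (-0.39). In the unfolded protein and amino acid response 4 rose and 5 fell of 29, with the transcription factor CEBPG at -0.64, the chaperone HSPA5 at -0.33 and DNAJB9 at 0.35. Heat shock genes counted 1 rise (6.67%) and 4 falls (26.7%) of 15, the largest being HSP90AA1 (-0.37) and HSPA4 (0.37). The 4 falls were 2 to 4 when 1 array was left out, since HSPB1 and HSPA1B lost their calls, both of them for instance without siRNA no. 2 replicate 1 at 42 h. Of 28 interferon response genes 1 rose and 1 fell, and of 21 immediate early genes 6 rose (28.6%) and 2 fell (9.52%). IER3 rose by 0.56 and the transcription factor EGR1 by 0.55, although the EGR1 groups overlapped.

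The other deacetylases changed little. Of 17 measured histone deacetylase and sirtuin genes 2 fell and 0 rose, and HDAC3, the catalytic subunit of the NCoR corepressor, fell by 0.39. Of 25 corepressor subunits 2 rose and 3 fell, with the methyl-CpG reader MBD2 at 0.61. Its 3 other probes lay between -0.06 and 0.08. Of 19 clustered histone genes 2 rose and 2 fell, with H2BC9 at -0.47. H2BC5 rose by 0.58, but 2 of 3 probes carried no such rise and histone genes share sequence, so this value is uncertain.

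On the glycolysis and sterol lists 17.6% and 18.5% of members fell, near the 14.1% of detected genes (7.67% of all genes). Each of these lists had 4 to 6 falls when 1 array was left out. Glycolysis and hypoxia genes counted 4 rises and 6 falls of 34, with the glucose transporter SLC2A3 at 0.56 and STC1 at -0.56. Sterol and fatty acid synthesis counted 2 rises and 5 falls of 27, with the desaturase SCD at -0.42, and respiratory chain subunits 4 rises and 1 fall of 32, with UQCRB at 0.38.

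RNA handling and trafficking lists held single large changes. Of 18 genes of RNA interference 3 rose and 3 fell. LIN28B led the rises, and AGO2, the slicer of RNA interference, fell by 0.42. Stress granule and RNA-binding proteins counted 6 rises and 3 falls of 27, with G3BP2 and CPEB1 at the ends. Of 36 autophagy and lysosome genes 7 rose and 3 fell, with ATG14 (0.69), which directs the autophagy lipid kinase, ATG5 (0.52) and ATG16L1 (0.36) among the rises. Vesicle coats, adaptors and translocon counted 5 rises and 3 falls of 47, led by NECAP1 (0.67), an endocytic adaptor, and RAB GTPases 6 rises and 3 falls of 41, led by RAB32 (-0.44). Of 18 MHC class I and antigen processing genes 1 rose and 1 fell. Shares of rises and falls were 10.6% and 6.38% on the vesicle list, 14.6% and 7.32% on the RAB list and 19.4% and 8.33% on the autophagy list. Among detected genes they were 12.1% and 14.1%.

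siRNA no. 2 was next compared directly with siRNA no. 1 in the same cells, over 12 arrays with no control array. Signals after siRNA no. 2 were above those after no. 1 for 4205 probes and below for 4533, in genes 2582 (12.9%) and 2849 (14.2%). CDKN1A differed most, by 2.43 (SE 0.07, adjusted p = 1.13e-24). Its signals were 9.96 to 10.38 (median 10.25) after siRNA no. 1, 11.33 to 11.46 in control cells and 12.46 to 12.89 after siRNA no. 2, so the 3 groups did not overlap and the control lay between the 2 siRNAs.

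The cell cycle lists separated both siRNAs. Signals after siRNA no. 2 were above those after no. 1 for 37 of 40 G2/M genes, 32 of 37 kinetochore genes, 23 of 28 kinesin and spindle genes, 38 of 50 replication genes and 21 of 25 nucleotide supply genes, and below for 0, 0, 2, 0 and 0. CENPA, for one, had a median of 9.96 in control cells, 9.37 after siRNA no. 2 and 8.48 after no. 1 (no. 2 minus no. 1 0.82). GMNN, the inhibitor of replication licensing, was 1.47 above no. 1 and lay at 0.13 against control, which did not pass the test. CCNE1 (difference 0.10) and UHRF1 (0.05) did not pass, with medians of 7.99 and 7.98 for CCNE1 and of 11.01 and 10.86 for UHRF1 after no. 2 and no. 1.

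In the other direction stood neuronal genes. Signals after siRNA no. 2 were below those after no. 1 for 21 of 33 neuronal genes and above for 1. DCX had a median of 10.18 in control cells, 9.61 after siRNA no. 2 and 11.38 after no. 1 (difference -1.78). H2BC5 (-2.04), CHCHD10 (-1.75), CNTN1 (-1.75), PPARGC1A (-1.72) and POLR3GL (-1.69) had the other largest negative differences, and the most positive ones beside those of CDKN1A and GMNN were SRPRB (1.69), MAPK6 (1.63), RNVU1-7 (1.43) and RNU1-3 (1.43). Of the 20 largest falls against control 19 were also below siRNA no. 1, and of the 20 largest rises 18 were above it. These genes were picked for their siRNA no. 2 values, which this comparison uses again.

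BE(2)-C cells given siRNA no. 2 offered arrays that, beyond the joint normalization, had no part in choosing those genes. There, 8.46% of genes rose and 9.39% fell against BE(2)-C controls. Of the 20 largest falls of IMR-32 cells 18 fell in BE(2)-C cells, 1 rose and 1 did not pass, and of the 20 largest rises 18 rose and 2 did not pass, of which CPEB1 was detected on 0 of the 12 BE(2)-C arrays. The median over the falls was -0.94 in IMR-32 and -1.02 in BE(2)-C cells, and over the rises 0.76 and 0.61. TMOD2, for instance, changed by -1.37 and -1.46, and STUB1 by -1.01 and -1.36.

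**Figure D5:**
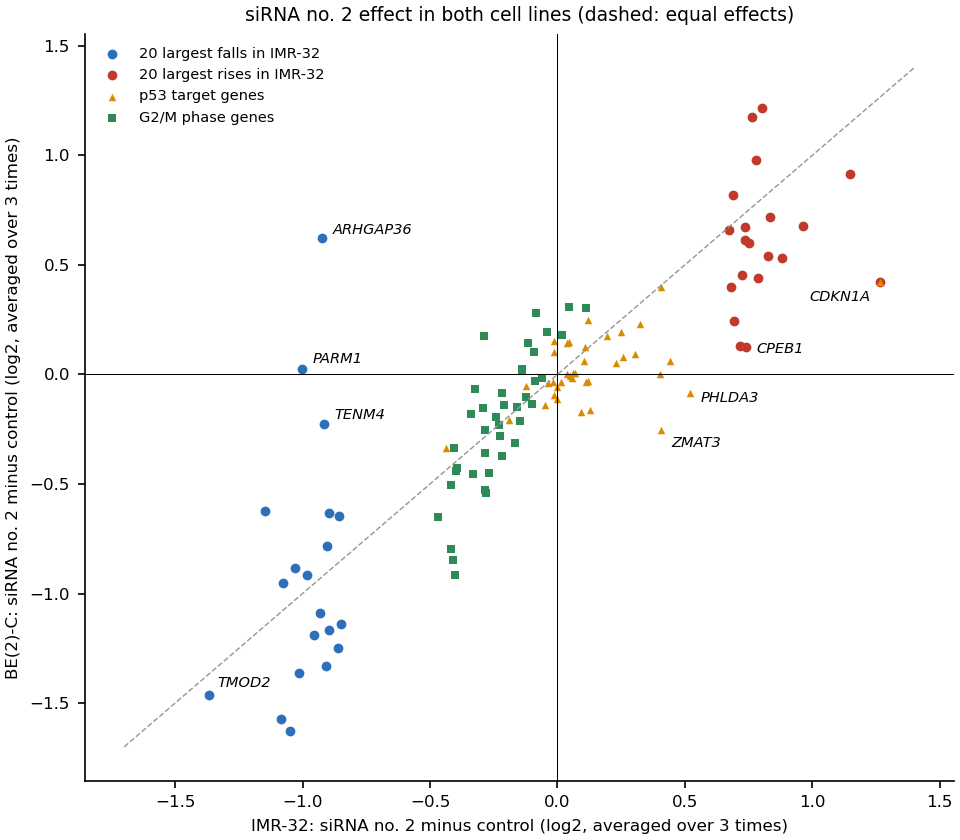
Averaged log2 difference, siRNA no. 2 minus control, in IMR-32 (horizontal) and BE(2)-C cells (vertical); blue and red circles are the 20 largest falls and rises in IMR-32 cells, orange triangles p53 targets and green squares G2/M genes. Of each 20 circles 18 changed in the same direction in BE(2)-C cells, with ARHGAP36 (-0.92 and 0.62) and PARM1 (0.02 in BE(2)-C cells) above it, and CDKN1A (1.27 and 0.42) and ZMAT3 (0.41 and -0.25) below it; PHLDA3 and CPEB1 lie at background in BE(2)-C cells.

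The difference between the cell lines was tested as an interaction over all 36 arrays. The effect of siRNA no. 2 was higher in IMR-32 cells for 733 probes and lower for 683, in genes 484 (2.41%) and 442 (2.21%). On the p53 list 5 of 38 genes had a higher effect in IMR-32 cells and 0 a lower one. CDKN1A rose by 1.27 in IMR-32 and by 0.42 in BE(2)-C cells, a difference of 0.85 (SE 0.10, adjusted p = 5.71e-08). BE(2)-C cells also started lower, with a CDKN1A median of 7.91 in their control arrays against 11.38 in IMR-32 controls. ZMAT3 rose by 0.41 in IMR-32 and fell by 0.25 in BE(2)-C cells. PHLDA3, also among the 5, was detected on 0 of the 12 BE(2)-C arrays, so no effect could be measured for it there.

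Genes of identity also differed between the lines. On the neuronal list 7 of 33 genes had a lower effect in IMR-32 cells and 2 a higher one, and on the catecholamine list 6 of 20 and 1. SYT1 (-0.45 and 0.27), CHGB (-0.42 and 0.42) and DBH (-0.32 and 0.68), the enzyme that makes noradrenaline, fell in IMR-32 and rose in BE(2)-C cells. DBH was detected on 6 of 12 IMR-32 arrays. ARHGAP36, which restrains protein kinase A, had the most negative difference of all genes, -0.92 against 0.62. The largest differences in the other direction were those of the metallothioneins MT1X (1.46) and MT1F (1.24), of C6 (1.22), of BAMBI (1.16), a decoy receptor of TGF-beta signalling, of the drug efflux pump ABCB1 (0.99) and of DDN (0.98).

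Some of these genes lay at or near background in IMR-32 cells. MT1F, C6 and ABCB1 were detected on 0 of the 12 IMR-32 arrays and fell by 1.22, 1.14 and 1.01 in BE(2)-C cells. The small nucleolar RNAs SNORD46, SNORD13, SNORD114-3, SNORD18A and SNORD74 rose by 1.13 to 1.47 in BE(2)-C cells. Their IMR-32 values lay between -0.10 (SNORD13) and 0.10 (SNORD114-3) and did not pass the test. SNORD114-3 was detected on 0 of the 12 IMR-32 arrays. SNORD46 and SNORD13 were detected on all 12 of them, and SNORD18A and SNORD74 on 10. Of 40 G2/M genes 3 had a higher effect in IMR-32 cells and 1 a lower one, and of 50 replication genes 0 differed in either direction.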

How the data were processed

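RNA of 36 samples had been hybridized to Illumina HumanHT-12 bead arrays, and 12 were the subject here. The authors deposited a table of unnormalized probe intensity with a detection p-value for each probe and array, and a series matrix of normalized intensity values. The deposited detection p-value tells how often background beads reach a probe's signal. From the unnormalized intensities, 3 of 47323 probes with blank or 0 values were left out, all 36 arrays were quantile normalized together, and log2 was taken. No background was subtracted, so differences of dim genes are understated.

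limma 3.58.1 (R 4.3.3) was fitted to the 12 arrays with 1 coefficient for each siRNA and time, and the siRNA effect was averaged over the 3 times. siRNAs were compared within IMR-32 cells and lines as an interaction over all 36 arrays. p-values were Benjamini-Hochberg adjusted over 47320 probes, with calls below 0.05. A gene was read from the probe with the largest F statistic over the 3 times. Platform symbols were updated through RefSeq (GRCh38.p14), leaving 30112 named probes and 20045 genes. The depth of an array is not a count, and the number of arrays limits the precision.

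Named were HDAC11, the 9 genes the study names, the 20 largest rises and falls (called on average and at 2 or more times, with all 6 arrays on one side of the control mean), up to 6 called genes of each of 32 lists, and the 6 largest differences in each direction between siRNAs and between lines. The members and lists were chosen with earlier results of these data known. The fit was tested on simulated data. Alternatives were normalization over 12 arrays, median scaling, the series matrix, normexp, a filter on dim probes, a trended prior, all 18 IMR-32 arrays in the fit, the brightest probe, a stricter threshold, the replicate block and leaving out each array.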

Additional observations from a re-analysis of the deposited data

Results flagged for a closer look

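The effect of siRNA no. 2 was tested for a difference between IMR-32 and BE(2)-C cells (limma interaction over all probes, adjusted p below 0.05), and 733 probes had a higher and 683 a lower effect in IMR-32 cells. Of the 124 genes described above and covered by the rule for named genes, 49 differed, 30 with a higher and 19 with a lower effect in IMR-32 cells. Over all genes the shares were 2.41% and 2.21%, and 12 of the 49 had been named for this very difference, so the count is a description. Values below are the effect in IMR-32 cells minus that in BE(2)-C cells on the log2 scale. They lie on probes chosen for IMR-32 cells, and most of these genes were named for their IMR-32 values.

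Opposite calls in both lines were found for ARHGAP36 (-1.54), DBH (-0.99), CHGB (-0.84), SYT1 (-0.71) and HSPA5 (-0.58) among the negative differences and for MT1X (1.46), BAMBI (1.16), DDN (0.98) and ZMAT3 (0.66) among the positive ones. HSPA5, the main chaperone of the endoplasmic reticulum, fell by 0.33 in IMR-32 and rose by 0.26 in BE(2)-C cells, and BAMBI rose by 0.58 and fell by 0.58.

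Further negative differences, where the IMR-32 fall was deeper or the rise smaller, were those of PARM1 (-1.03), TENM4 (-0.69), HES4 (-0.60), ARHGDIB (-0.52), PRPH (-0.45), COL5A1 (-0.44), RAB32 (-0.40), HEATR1 (-0.40) and CNTNAP2 (-0.38). Further positive ones were those of CDKN1A (0.85), MBD2 (0.67), CPEB1 (0.61), PHLDA3 (0.61), RNU4-1 (0.59), G3BP2 (0.58), CCNE1 (0.55), CDCA3 (0.52), MXRA7 (0.49), DLGAP5 (0.45), PIF1 (0.43), CHCHD10 (0.42), SESN1 (0.38), CDKN3 (0.38), ATG5 (0.37), MXD3 (0.36), LIN28B (0.35), CENPE (0.35), EIF5A2 (0.34), POLR3GL (0.34), HSPB1 (0.33), RRS1 (0.30) and CHGA (0.30). Among the small nucleolar RNAs the differences were SNORD46 (-1.46), SNORD13 (-1.37), SNORD114-3 (-1.35), SNORD18A (-1.08) and SNORD74 (-1.05), and among genes lowered in BE(2)-C cells MT1F (1.24), C6 (1.22) and ABCB1 (0.99). PHLDA3, CPEB1, MBD2 and RAB32 were detected on 0 of 12 BE(2)-C arrays, and MT1F, C6, ABCB1 and SNORD114-3 on 0 of 12 IMR-32 arrays. For these 8 genes the effect in that line is not measured, and the printed difference is set against a probe at background.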

How the results depend on the processing

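The counts of calls moved with the processing. Of 1813 probes higher, median scaling left 1038 and an adjusted p below 0.01 left 1107. The criterion of 2 or more times, met by 304 higher and 469 lower probes, moved most: higher probes numbered 146 with median scaling, 112 with normexp background correction, 542 with dim probes left out, 483 with a trended and robust prior and 159 at an adjusted p below 0.01, and lower probes 194 with normexp, 750 with dim probes left out and 258 at an adjusted p below 0.01. Leaving out 1 array at a time gave 1457 to 1702 higher and 1747 to 1918 lower probes on average, and 201 to 287 higher and 330 to 440 lower probes at 2 or more times. The lowest of these, 201 and 202 against 304, came without control replicate 1 at 48 h and without siRNA no. 2 replicate 1 at 54 h. Between the lines, 406 probes were lower with median scaling and 485 higher with normexp. For 54 h against 42 h the trended prior called 2 probes higher. The higher share of calls was 46.8%, and 31.1% with median scaling. The cause of these moves was not tested.

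Among named genes, signs turned only for 3 that were not called in IMR-32 cells: SNORD46 (-0.017 under median scaling, -0.0018 in the authors' matrix, -0.0101 to 0.0414 leaving out 1 array), MT1F (-0.0611 to 0.0973) and ABCB1 (-0.0484 to 0.0104). The rise of ZMAT3 was 0.03 and that of H2BC5 0.08 on the probe with the highest mean signal, and the rise of RNVU1-7 lost its call with the trended prior. The differences of named genes from siRNA no. 1 and between the lines numbered 79 together. Of these, 15 lost their call with normexp, 14 with median scaling, 3 with the replicate block, 2 with the authors' matrix and 1 with the trended prior. List counts moved by over 1.5 times in 14 of 64 cases with normexp, 13 at an adjusted p below 0.01, 10 with median scaling, 9 with dim probes left out and 78 of 768 leaving out 1 array. BIRC2 lost its call under 17 settings and IRF9, HSPB1 and PMVK under 12 each. Leaving out 1 array, 22 to 25 G2/M genes, 15 to 17 kinesin genes and 7 to 11 replication genes fell, and 10 to 12 p53 targets rose. HDAC11 stayed uncalled, at -0.12 to -0.04 leaving out 1 array.

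Replicate numbers did not pair the arrays: deviations of arrays with the same number correlated at 0.04, 0.02 and 0.09 at 42, 48 and 54 h over 20119 probes. With the replicate block 1814 probes were higher and 2065 lower on average, 288 and 458 at 2 or more times, and 770 and 720 between the lines. A fit with the slide as a block was not run, since slides are not named in the tables used here. Signals near background, as for HDAC11, limit what can be seen.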
